A study of Rattus norvegicus with 12 samples.

Results

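The genes described here are 9 genes of lysosomal proteolysis, phagocytosis and lipid transport, followed through the deep and superficial sublayers of hippocampal area CA1 in chronically epileptic and control rats. They were chosen by identifier, and all 9 had a row among the 32662 Ensembl gene identifiers of each count table: Cst3 (ENSRNOG00000005195), Ctsb (ENSRNOG00000010331), Ctsd (ENSRNOG00000020206), Ctsl (ENSRNOG00000018566), Gpnmb (ENSRNOG00000008816), Lgals3 (ENSRNOG00000010645), Spp1 (ENSRNOG00000043451), Apoe (ENSRNOG00000018454) and Clu (ENSRNOG00000016460). Cst3 was included because its sublayer bias had been seen to reverse with epilepsy. Its values within and between sublayers are therefore given as a description, without a test. Its level is tested only with both sublayers summed. The other 8 were also chosen with earlier results of these data known.

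The 12 libraries fall into 4 groups of 3, from adult male Wistar rats with a labelled age of 45 to 50 days. Epileptic deep and epileptic superficial libraries came from 3 rats given kainate, an agonist of ionotropic glutamate receptors, in repeated doses of 5 mg/kg until status epilepticus, a seizure state lasting over 30 min that was ended with 4 mg/kg diazepam. RNA was taken 6 to 8 weeks later, in the chronic phase. Per the labels, seizures were noticed during handling or found by recording in a subset of animals, without saying for which of the 3 rats sequenced, and controls had none. Control deep and control superficial libraries came from 3 rats injected with vehicle, saline or DMSO, and otherwise treated alike. Both sublayers of each animal were cut by laser microdissection from frozen 20 µm hippocampal sections, with the pyramidal cell bodies as the target, and total RNA was sequenced.

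Cathepsins are proteases, most of which work in the lysosome. Cathepsins B and L, encoded by Ctsb and Ctsl, are cysteine proteases, and cathepsin D, encoded by Ctsd, is an aspartic protease. Cst3 encodes cystatin C, a secreted inhibitor of cysteine cathepsins. Gpnmb encodes a membrane glycoprotein of phagocytes with large lysosomal loads, Lgals3 encodes galectin-3, a sugar-binding protein that marks damaged lysosomes, and Spp1 encodes osteopontin, a secreted phosphoprotein. In the rodent brain these phagocytic genes are best known from activated microglia and macrophages. Apoe and Clu encode apolipoprotein E and clusterin, which carry lipids between cells and are made largely by astrocytes, with Apoe also raised in activated microglia. Reactive glia are a known feature of the epileptic hippocampus.

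Upstream sequences are shown for 3 of these genes because the data bear on genes that moved together across animals: Ctsd and Gpnmb, in whose windows a searched motif was found, and Cst3, whose sublayer pattern led to its inclusion. Each is the 250 bases before the RefSeq start of the gene on build GRCr8, written 5′ to 3′ on the strand of the gene, whereas the reads were counted on Rnor_6.0. The Ctsd window is chr1:206968822-206969071 on the minus strand, the Gpnmb window chr4:79340878-79341127 on the plus strand and the Cst3 window chr3:156793938-156794187 on the minus strand. Capitals mark matches to the motifs CACGTG and TCATGTGA, which are bound by the MITF and TFEB family of lysosomal and melanocyte transcription factors, and TGANTCA, which is bound by AP-1.
Ctsd: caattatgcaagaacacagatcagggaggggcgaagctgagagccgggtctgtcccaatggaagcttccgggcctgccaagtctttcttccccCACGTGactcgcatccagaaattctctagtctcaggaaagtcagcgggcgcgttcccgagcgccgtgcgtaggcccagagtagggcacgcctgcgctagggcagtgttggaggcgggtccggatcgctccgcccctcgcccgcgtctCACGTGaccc
Gpnmb: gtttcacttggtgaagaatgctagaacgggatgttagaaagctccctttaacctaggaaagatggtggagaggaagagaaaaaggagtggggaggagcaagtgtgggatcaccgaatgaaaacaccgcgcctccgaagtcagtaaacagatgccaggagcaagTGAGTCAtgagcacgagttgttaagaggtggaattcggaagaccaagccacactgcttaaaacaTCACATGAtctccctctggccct
Cst3: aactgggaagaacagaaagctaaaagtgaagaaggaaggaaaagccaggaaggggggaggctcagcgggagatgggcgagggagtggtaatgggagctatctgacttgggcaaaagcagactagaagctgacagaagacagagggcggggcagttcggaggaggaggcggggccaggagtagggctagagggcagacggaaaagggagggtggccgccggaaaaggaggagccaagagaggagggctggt

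The motifs were searched on both strands, and none of the 3 contains another. The Ctsd window held CACGTG at 157 to 152 and at 10 to 5 bases before the start, and 5.59% of all 33469 windows of this length held at least 1 match. The Gpnmb window held TGAGTCA at 87 to 81 bases before the start, and the AP-1 motif was found in 6.34% of all windows. It also held TCACATGA, the reverse complement of TCATGTGA, at 23 to 16 bases before the start, a motif found in 0.977% of all windows. None of the motifs was found in the windows of Cst3, Ctsl or Spp1, or in any of the 3 windows of Apoe. RefSeq windows were matched for 6 of the 9 genes.

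Epileptic libraries held 20623196 to 25893962 counts assigned to genes, against 16135358 to 19550582 in control libraries. The share of alignments outside annotated exons was 22.3 to 26.7% in both sublayers of epileptic animals 2 and 3, against 43.0% and 37.7% in the deep and superficial libraries of epileptic animal 1 and 35.8 to 44.0% in control libraries. A single abundant identifier, the same one in every library, took 11 to 22.8% of the gene counts in epileptic and 8.24 to 13% in control libraries. The animals of 1 condition thus differed in library make-up as well as in the genes below. The defining markers of pyramidal neurons and of other cell types were not checked, because the symbols of other identifiers were not used here. In dissected tissue, more cells of a type and more RNA per cell cannot be told apart.

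All levels below are in CPM, the read count relative to the library size after TMM scaling, and a level is compared between libraries, never between genes. The differences between epileptic and control libraries were large for the phagocytic genes, smaller for Cst3, Ctsd, Apoe and Clu, and small for Ctsb and Ctsl. Epileptic animal 1 lay close to the controls for most of the genes and epileptic animal 3 far above them.

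**Figure D1:**
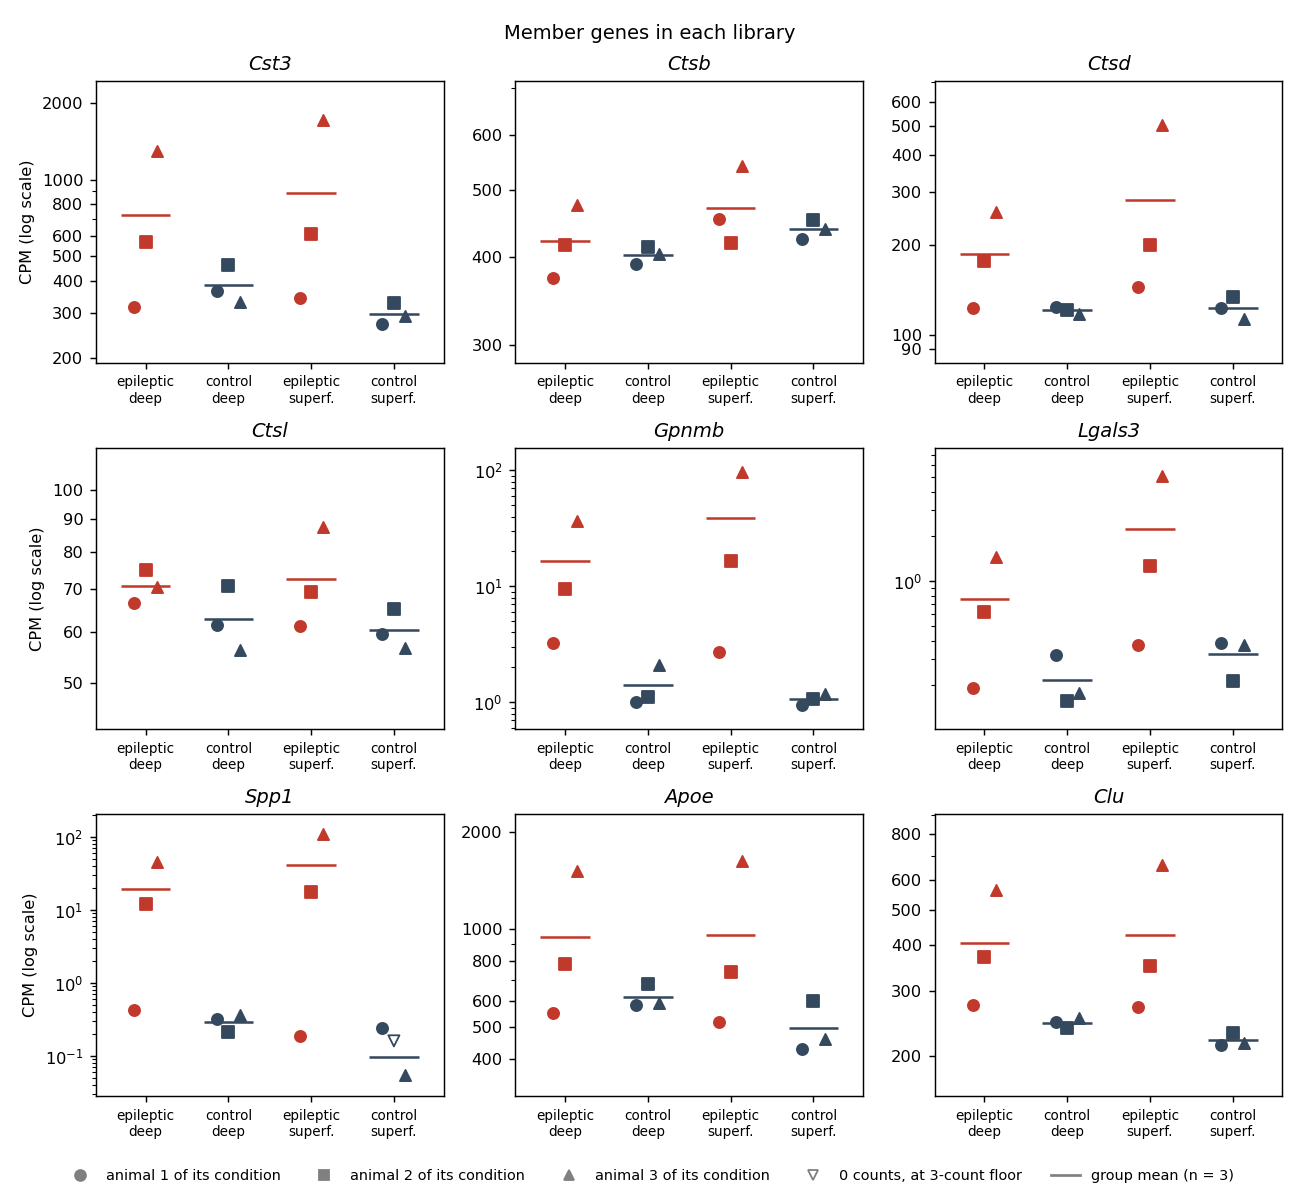
Level of each gene in every library, in CPM on log axes that differ between panels. Points are libraries, shapes are animals 1 to 3 of each condition, and bars are means of 3 libraries; the open triangle is the control superficial library with 0 Spp1 counts, drawn at its floor of 0.16 CPM. Epileptic animal 3 (red triangles) has the highest level in the superficial sublayer for all 9 genes.

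Cst3, the cysteine protease inhibitor, had 315, 571 and 1290 CPM in deep epileptic libraries of animals 1, 2 and 3, against 367, 463 and 331 CPM in deep control libraries. In superficial libraries it had 342, 610 and 1710 CPM in epileptic animals, against 272, 327 and 291 CPM in control animals. The groups overlapped in deep CA1, where epileptic animal 1 was below every control, and did not overlap in superficial CA1. With the counts of both sublayers summed per animal, Cst3 stood at 327, 593 and 1530 CPM in epileptic animals, against 317, 394 and 309 CPM in control animals. The fitted log2 fold change was 1.27 (SE 0.54), and it did not pass edgeR's quasi-likelihood test (adjusted p = 0.281, 3 animals against 3). The SE is the absolute log2 fold change divided by the square root of the F statistic, an approximation.

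The cathepsins differed from one another. Ctsd had 123, 176 and 258 CPM in deep epileptic libraries, against 124, 121 and 117 CPM in deep control libraries. It had 145, 200 and 503 CPM in superficial epileptic libraries, against 123, 134 and 113 CPM in superficial control libraries. The superficial groups did not overlap, while in deep CA1 epileptic animal 1 lay within the control range. The log2 fold change of Ctsd was 0.62 (SE 0.23, adjusted p = 0.296) in deep and 1.22 (SE 0.49, adjusted p = 0.265) in superficial CA1. Ctsb had 374, 417 and 476 CPM in deep epileptic and 391, 414 and 404 CPM in deep control libraries. In superficial libraries Ctsb had 454, 420 and 541 CPM in epileptic and 425, 453 and 439 CPM in control animals. The Ctsb groups overlapped in both sublayers, with log2 fold changes of 0.07 (SE 0.11, adjusted p = 0.810) in deep and 0.12 (SE 0.11, adjusted p = 0.570) in superficial CA1. Ctsl ranged from 61.3 to 87.5 CPM in epileptic and from 56.3 to 70.9 CPM in control libraries. Its groups also overlapped in both sublayers, with log2 fold changes of 0.17 (SE 0.11, adjusted p = 0.520) in deep and 0.29 (SE 0.14, adjusted p = 0.303) in superficial CA1.

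Among the phagocytic genes, Gpnmb had 3.24, 9.53 and 36.7 CPM in deep epileptic libraries, against 1.01, 1.10 and 2.08 CPM in deep control libraries. In superficial libraries it had 2.74, 16.6 and 96.2 CPM in epileptic and 0.956, 1.07 and 1.18 CPM in control animals. Every epileptic library lay above every control library, also for the epileptic animal nearest to the controls. The log2 fold change of Gpnmb was 3.57 (SE 0.91, adjusted p = 0.211) in deep and 5.20 (SE 1.51, adjusted p = 0.201) in superficial CA1. In deep CA1 it passed with the replicate number as a block (log2 fold change 3.22, edgeR adjusted p = 0.0346), where each block joins 1 epileptic and 1 control animal and 1.68% of all identifiers were called. The same block called none of the genes in superficial or summed libraries.

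Spp1 was counted in 9, 249 and 828 reads in deep epileptic libraries, against 6, 4 and 6 reads in deep control libraries. In superficial libraries it had 4, 423 and 2262 reads in epileptic and 5, 0 and 1 reads in control animals. Osteopontin message was thus near the limit of detection in all control libraries and in epileptic animal 1, and abundant in epileptic animals 2 and 3. The library with 0 reads allows a level of up to 0.16 CPM, the value of 3 counts in it, which covers counting error only. Mean Spp1 levels were 19 CPM in epileptic and 0.294 CPM in control deep libraries, and 41.4 CPM in epileptic and 0.0976 CPM in control superficial libraries. The superficial control mean rests on 6 reads in all.

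Lgals3 had 4, 13 and 27 reads in deep epileptic libraries and 6, 3 and 3 reads in deep control libraries. It had 8, 31 and 108 reads in superficial epileptic libraries and 8, 4 and 7 reads in superficial control libraries. Animal 1 was again at control level, and the groups overlapped in both sublayers. In the main tests Spp1 and Lgals3 did not pass the filter on low counts within either sublayer. They passed it when both sublayers were summed, with log2 fold changes of 7.31 (SE 2.03, adjusted p = 0.197) for Spp1 and 2.50 (SE 0.88, adjusted p = 0.237) for Lgals3. Without the filter, Spp1 had log2 fold changes of 5.99 (adjusted p = 0.476) in deep and 8.60 (adjusted p = 0.349) in superficial CA1, and Lgals3 1.74 (adjusted p = 0.379) and 2.79 (adjusted p = 0.359).

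Of the lipid carriers, Apoe had 551, 785 and 1510 CPM in deep epileptic libraries, against 586, 677 and 594 CPM in deep control libraries. In superficial libraries Apoe had 518, 737 and 1630 CPM in epileptic and 427, 602 and 459 CPM in control animals. The Apoe groups overlapped in both sublayers through epileptic animal 1. Its log2 fold change was 0.62 (SE 0.32, adjusted p = 0.440) in deep and 0.98 (SE 0.45, adjusted p = 0.299) in superficial CA1. Clu had 276, 372 and 566 CPM in deep epileptic libraries, against 248, 239 and 254 CPM in deep control libraries. In superficial libraries Clu had 273, 351 and 660 CPM in epileptic and 215, 231 and 218 CPM in control animals. As with Gpnmb, no epileptic library of Clu overlapped with a control library in either sublayer. The Clu difference did not pass the test, with log2 fold changes of 0.72 (SE 0.22, adjusted p = 0.249) in deep and 0.98 (SE 0.33, adjusted p = 0.222) in superficial CA1.

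Across the table, edgeR's quasi-likelihood test called 0 of 14261 identifiers in deep (0%), 2 of 14321 in superficial (0.014%) and 5 of 15398 in summed libraries (0.0325%) at an adjusted p below 0.05. None of the genes tested was among them. The counts that follow are over 6 genes, Ctsb, Ctsd, Ctsl, Gpnmb, Apoe and Clu, which reached the filter on low counts in control libraries alone. Lgals3 and Spp1 reached it in summed libraries only with the help of epileptic libraries, where they were high, and their values above are not counted. Higher in epileptic libraries at an unadjusted p below 0.05 were 3 of 6 genes in deep CA1 (Ctsd, Gpnmb and Clu, with 8.22% of all identifiers higher), 2 of 6 in superficial CA1 (Gpnmb and Clu, with 10.2%) and 3 of 6 in summed libraries (Ctsd, Gpnmb and Clu, with 10.3%). DESeq2 called Gpnmb and Clu in deep libraries, among 2.64% of all identifiers. In superficial CA1 it called Gpnmb, among 6.18%, and in summed libraries Gpnmb and Clu, as well as Lgals3 and Spp1, among 5.97%. Limma-voom with sample quality weights called Ctsd and Clu in deep libraries, among 14.9% of all identifiers. It called Clu in superficial (12.2%) and in summed libraries (16.1%). The fold changes of all 6 genes were above 0 in each fit, against 50.2, 51 and 50.7% of all identifiers in the deep, superficial and summed fits. Their median log2 fold change was 0.62 in deep, 0.98 in superficial and 0.82 in summed libraries, beside medians of 0.0009, 0.01 and 0.00 over all identifiers. Epileptic libraries without overlap above the controls were seen for 2 of the 6 genes in deep CA1, where 8.82% of all identifiers had this pattern, and for 3 of 6 in superficial CA1, where 10.2% had it. Gpnmb and Clu lay higher in all 6 epileptic than in all 6 control libraries, as did 2.02% of all identifiers. The deep and superficial libraries come from the same animals and are not independent.

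**Figure D2:**
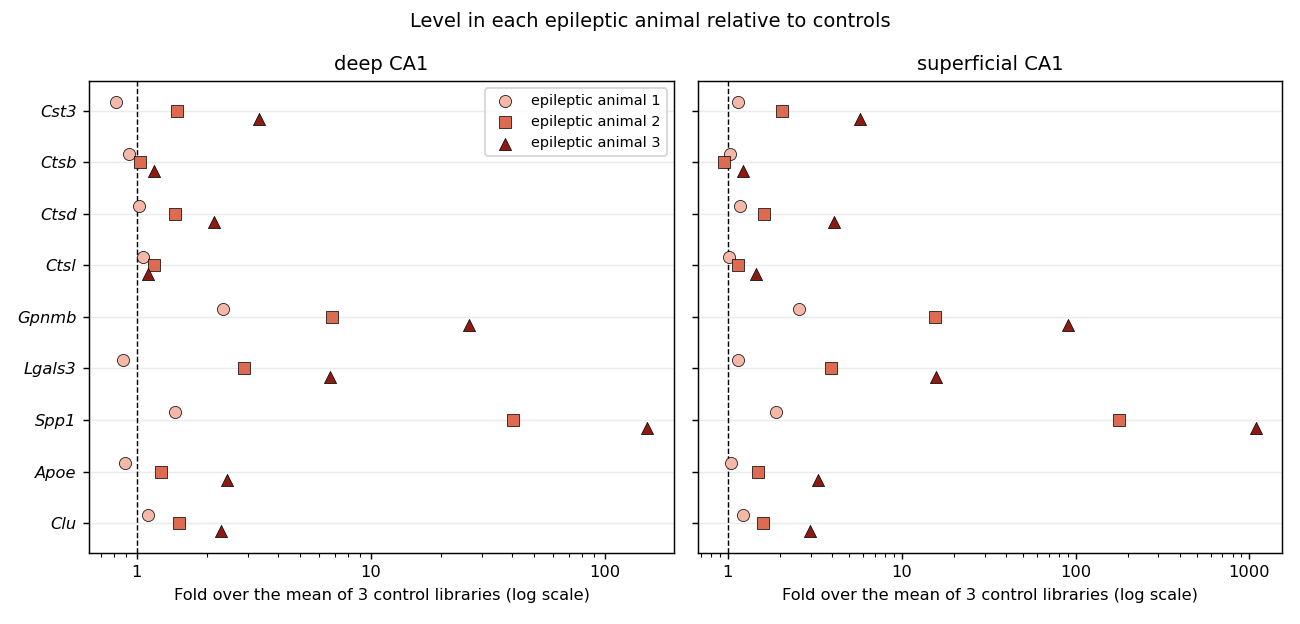
Level in each of the 3 epileptic animals divided by the mean of the 3 control libraries of the same sublayer, on log axes that differ between the panels; the dashed line marks the control mean. Animal 1 lies between 0.813 and 2.56 times the control mean for all 9 genes, while animal 3 reaches 90 times for Gpnmb and 1090 times for Spp1 in superficial CA1.

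The epileptic animals were ordered alike by nearly all of these genes. Animal 1 had the lowest and animal 3 the highest level for 8 of 9 genes in deep CA1, with Ctsl the exception, and for 8 of 9 in superficial CA1, with Ctsb the exception. Of the 14791 identifiers kept in the fit of all libraries, 27.4% had that order in deep and 24.8% in superficial CA1. Lgals3 and Spp1 were kept through epileptic libraries alone, and none of these came from animal 1. For Lgals3 and Spp1 the filter thus favoured animal 1 as the lowest, and the count of 8 in each sublayer includes them. In animal 3, superficial levels relative to the control mean were 1.23-fold for Ctsb, 1.45-fold for Ctsl, 2.98-fold for Clu, 3.29-fold for Apoe, 4.08-fold for Ctsd, 5.77-fold for Cst3, 15.7-fold for Lgals3 and 90-fold for Gpnmb. In animal 1 the same ratios were 1.01 to 1.23 for these genes other than Gpnmb, which was at 2.56. The coefficient of variation was larger among epileptic than among control libraries for 8 of 9 genes in deep and 9 of 9 in superficial CA1, as for 70.1% and 69.4% of all identifiers. Its median over the 9 genes was 52.6% in epileptic and 11.8% in control deep libraries, and 68.1% in epileptic and 9.50% in control superficial libraries. Over all identifiers the medians were 14.6% for epileptic and 9.26% for control libraries in deep CA1, and 13.9% for epileptic and 8.75% for control libraries in superficial CA1. Lgals3 and Spp1 are again among the 9 genes, and the filter favoured a wide epileptic spread for them.

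Leaving out epileptic animal 1 changed the calls. In summed libraries Ctsd, Gpnmb and Clu then passed (edgeR adjusted p = 0.0382, 0.0249 and 0.0321), as did Cst3 (0.0390), Lgals3 (0.0340) and Spp1 (0.0228), while 9.05% of all identifiers were called in that fit. In deep CA1, Ctsd, Gpnmb and Clu passed (3.82% of all), and in superficial CA1, Gpnmb and Clu (9.96% of all). Spp1 in deep and Lgals3 and Spp1 in superficial CA1 also had an adjusted p below 0.05. Within a sublayer no control library of either gene reached the low-count filter. They entered through epileptic animals 2 and 3, where they were high. In the summed fit of all animals, 2 control libraries of Lgals3 and 1 of Spp1 reached it. The calls of Lgals3 and Spp1 are not counted as results. Without epileptic animal 3 the summed log2 fold change was 0.44 for Cst3, 0.41 for Ctsd, 0.22 for Apoe, 0.45 for Clu, 2.75 for Gpnmb, 1.20 for Lgals3 and 5.27 for Spp1, and none of these passed. Clu alone passed without animal 3 in superficial CA1 (adjusted p = 0.0424), where 2.84% of all identifiers were called. When the percentage of alignments lying outside exons was added to the model, an alternative chosen after seeing the data, the summed log2 fold changes were −0.17 for Cst3, 0.07 for Ctsd, 1.09 for Gpnmb, −0.03 for Lgals3, 0.43 for Spp1, −0.16 for Apoe and 0.19 for Clu. That share separates epileptic animals 2 and 3 from the other 4 animals, and its part in the differences cannot be told apart from theirs.

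**Figure D3:**
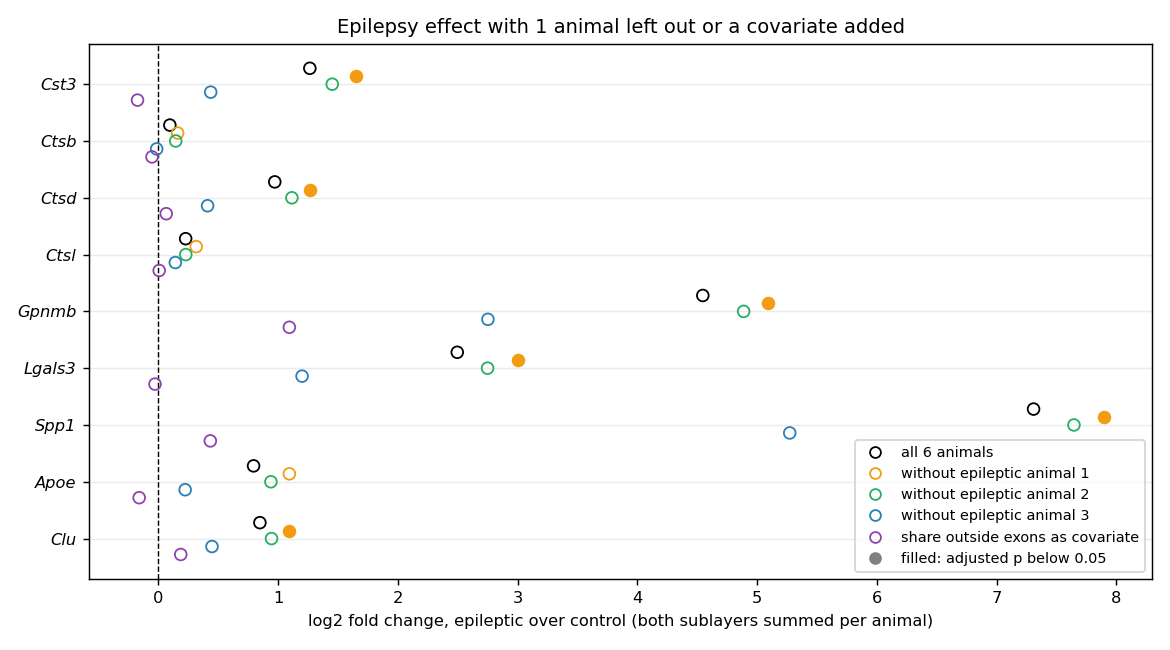
Log2 fold change, epileptic over control, with both sublayers summed per animal, for each gene under 5 fits; filled points have an adjusted p below 0.05. Filled points occur only in the fit without epileptic animal 1, and the fit that includes the percentage of alignments outside exons gives the lowest value for each gene.

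Ratios of counts of a pair of genes within a library do not depend on how libraries are scaled. The ratio of Cst3 to Ctsb, an inhibitor to a protease it acts on, was 0.841, 1.37 and 2.71 in deep epileptic libraries and 0.938, 1.12 and 0.819 in deep control libraries. In superficial libraries it was 0.752, 1.45 and 3.17 in epileptic and 0.639, 0.723 and 0.663 in control animals. The Ctsd to Ctsb ratio averaged 0.431 ± 0.108 in epileptic and 0.300 ± 0.0155 in control deep libraries (SD, n = 3 each). In superficial CA1 the average was 0.576 ± 0.316 for epileptic and 0.281 ± 0.0205 for control libraries (SD, n = 3 each). The Ctsd to Ctsb groups did not overlap in either sublayer (exact permutation test of log2 ratios, two-sided, p = 0.1 in each, the smallest value that 3 against 3 can give; adjusted p = 0.225 over 9 tests). The message of cathepsin D thus stood higher relative to that of cathepsin B in all epileptic libraries, but in animal 1 only slightly. Its ratio was 0.328 in deep CA1, where the highest control had 0.318, and 0.32 in superficial CA1, where the highest control had 0.297. The Ctsl to Ctsb ratio was 0.169 ± 0.0178 in epileptic and 0.156 ± 0.0161 in control deep libraries, and 0.154 ± 0.0165 and 0.138 ± 0.00803 in epileptic and control superficial libraries (SD, n = 3 each). The Apoe to Clu ratio was 2.26 ± 0.360 in epileptic and 2.51 ± 0.282 in control deep libraries, and 2.16 ± 0.290 and 2.23 ± 0.328 in epileptic and control superficial libraries (SD, n = 3 each). For both of these ratios the groups overlapped in each sublayer, with exact permutation p of 0.3 to 0.7. The Gpnmb to Ctsd ratio was 0.0743 ± 0.0604 in epileptic and 0.0117 ± 0.00531 in control deep libraries (SD, n = 3 each). It was 0.0978 ± 0.0872 and 0.00874 ± 0.00148 in epileptic and control superficial libraries (SD, n = 3 each). Its groups again did not overlap (exact permutation p = 0.1, adjusted p = 0.225 in each sublayer). The Spp1 to Gpnmb ratio, tested in deep CA1 only, had an exact permutation p of 0.4. How often other pairs of genes lack overlap was not computed.

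**Figure D4:**
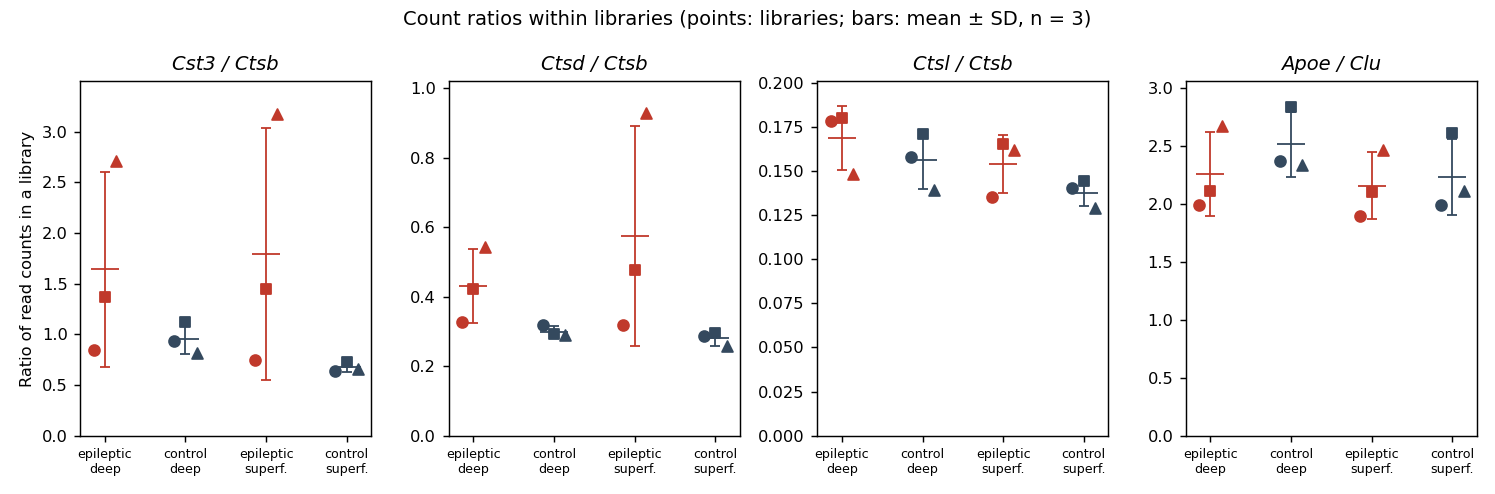
Ratios of read counts of 4 pairs of genes within each library; points are libraries, shapes are animals 1 to 3 of each condition, and bars are mean ± SD (n = 3). The ratios of Cst3 and of Ctsd to Ctsb are widely spread among epileptic animals, up to 3.17 and 0.930, while those of Ctsl to Ctsb and of Apoe to Clu overlap between the conditions.

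Deep and superficial CA1 were compared within animals, with a term for each animal in 1 model of all 12 libraries. Cst3, described only, had a superficial to deep CPM ratio of 1.09, 1.07 and 1.33 in epileptic animals 1, 2 and 3 and of 0.741, 0.707 and 0.881 in control animals. It was higher in the superficial library of every epileptic animal and higher in the deep library of every control animal. The fitted log2 fold change, superficial over deep, was 0.21 in epileptic and −0.37 in control animals, and the difference between these was 0.58. These values are the ones Cst3 was chosen for and support nothing further.

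Of the other 8 genes, Gpnmb, Lgals3 and Spp1 were higher in superficial than in deep CA1 of epileptic rats, where 5.04% of all identifiers were called higher. The superficial to deep ratio of Lgals3 was 1.95, 2.02 and 3.50 in epileptic animals 1, 2 and 3, and it was higher by 1.47 on the log2 scale (SE 0.28, adjusted p = 0.00355, higher in 3 of 3 animals). Gpnmb had ratios of 0.845, 1.75 and 2.62 and was higher by 0.96 (SE 0.21, adjusted p = 0.0234, higher in 2 of 3 animals). Spp1 had ratios of 0.433, 1.44 and 2.39 and was higher by 0.92 (SE 0.18, adjusted p = 0.00878, higher in 2 of 3 animals), where the first ratio rests on 4 reads in superficial and 9 in deep libraries. These calls rested on epileptic animal 3: without it the log2 fold changes were 0.99 for Lgals3, 0.49 for Gpnmb and 0.44 for Spp1 (adjusted p = 0.111, 0.0653 and 0.156). DESeq2 called neither Gpnmb (log2 fold change 0.69, adjusted p = 0.320) nor Spp1 (0.35, adjusted p = 0.883) and gave Lgals3 (1.34) no adjusted p. The Gpnmb call was also lost without any 1 of the control animals (log2 fold change 0.94 to 0.96, adjusted p = 0.0581 to 0.0785) and without epileptic animal 2 (1.03, adjusted p = 0.102), with the fold change close to its value of 0.96 in the full model. Lgals3 and Spp1 reached the low-count filter of this model through epileptic libraries of both sublayers. Ctsd had ratios of 1.19, 1.14 and 1.95 in epileptic animals, and its log2 fold change of 0.47 (SE 0.15) did not pass (adjusted p = 0.103). It passed without epileptic animal 2 (0.61, edgeR adjusted p = 0.0430), where 3.59% of all identifiers were called. Without epileptic animal 3 it also passed (0.21, edgeR adjusted p = 0.0233), where 15% were called. Ctsb, with ratios of 1.21, 1.01 and 1.14, did not pass either (log2 fold change 0.16, SE 0.05, adjusted p = 0.0720).

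In control rats edgeR called Apoe alone among these 8 genes between the sublayers, with 4.18% of all identifiers called lower. Its superficial to deep ratio was 0.729, 0.889 and 0.774 in control animals 1, 2 and 3, and its log2 fold change was −0.33 (SE 0.06, adjusted p = 0.00284, lower in superficial libraries of 3 of 3 animals). The call was lost without control animal 1 (−0.27, adjusted p = 0.0736). In epileptic animals Apoe had ratios of 0.940, 0.939 and 1.08, and the fitted difference was −0.02 (SE 0.06, adjusted p = 0.860). Clu had ratios of 0.986, 0.943 and 1.17 in epileptic and 0.868, 0.968 and 0.858 in control animals, with log2 fold changes of 0.04 (SE 0.06, adjusted p = 0.717) in epileptic and −0.16 (SE 0.06, adjusted p = 0.132) in control rats. The Clu difference in control rats passed without epileptic animal 3 (−0.16, edgeR adjusted p = 0.0294), in the model where all libraries share 1 estimate of the spread. That fit called 14% of all identifiers between the sublayers of control rats. Ctsb had a ratio of 1.09 in each of the 3 control animals, and the fitted difference of 0.12 (SE 0.05) had an adjusted p of 0.173. Limma-voom with sample quality weights called Ctsb (adjusted p = 0.0439) and Clu (adjusted p = 0.0117) in control rats as well as Apoe. It called 17.3% of all identifiers there. The control libraries held 0 to 35 reads each of Gpnmb, Lgals3 and Spp1, and edgeR called none of them between the sublayers. Lgals3 had ratios of 1.20, 1.36 and 2.11 in control animals, higher in superficial libraries of 3 of 3 as in epileptic animals (log2 fold change 0.55, SE 0.50, adjusted p = 0.563). Gpnmb had ratios of 0.951, 0.973 and 0.569, lower in 3 of 3 control animals (−0.36, SE 0.49, adjusted p = 0.725).

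**Figure D5:**
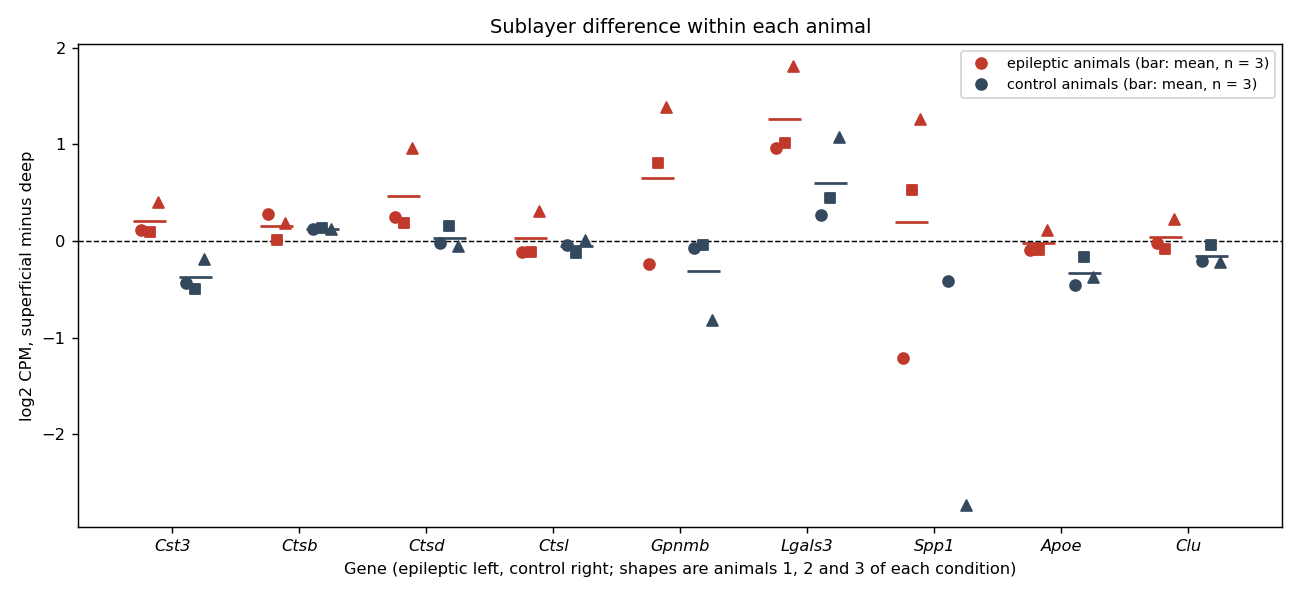
Superficial minus deep log2 CPM in each animal, epileptic (red) left of control (blue) for each gene; bars are means of 3 animals, and shapes are animals 1 to 3 of each condition. Control animal 2 has no Spp1 point because 1 of its libraries held 0 reads, and no mean is drawn for Spp1 in controls. Cst3 lies above 0 in all 3 epileptic and below 0 in all 3 control animals.

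The change of the sublayer difference with epilepsy was tested as an interaction. The test called 0 of the 8 genes and 0 of 14791 identifiers (0%) with edgeR's quasi-likelihood test, with 4.04% of all identifiers higher at an unadjusted p below 0.05. The difference, epileptic minus control, was 2.40 (SE 1.00, adjusted p = 0.742) for Spp1, 1.32 (SE 0.54, adjusted p = 0.742) for Gpnmb, 0.31 (SE 0.08, adjusted p = 0.363) for Apoe and 0.20 (SE 0.09, adjusted p = 0.738) for Clu, each with an unadjusted p below 0.05. Without Spp1 and Lgals3, which reached the filter through epileptic libraries alone, these are 3 of 6 genes. It was 0.92 (SE 0.60) for Lgals3, 0.44 (SE 0.21) for Ctsd, 0.08 (SE 0.11) for Ctsl and 0.03 (SE 0.08) for Ctsb. The estimates of the 6 genes all lay above 0, beside 48.5% of all identifiers, and their median was 0.25 beside −0.01 over all identifiers. DESeq2 called none of the 8 (0.0135% of all identifiers). Limma-voom with sample quality weights called Apoe (adjusted p = 0.0250, among 0.717% of all identifiers), and the edgeR fit without epileptic animal 1 called Gpnmb (adjusted p = 0.0291, among 0.563%). With no low-count filter, Ctsd, Gpnmb, Spp1 and Apoe were called, in a fit that called 0.751% of all identifiers. A sublayer difference called in one condition, as for the phagocytic genes in epileptic rats and Apoe in control rats, thus did not pass the test of a difference from the other condition.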

How the data were processed

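The deposited values are raw counts, whole numbers of reads per Ensembl gene identifier, in 1 table per library as the authors made them. Tools listed in the submitters' processing notes are STAR 2.5.0c, HTSeq 0.6.1, SAMtools 0.1.19 and FastQC 0.11.3, with build Rnor_6.0. No source used here says whether counting was stranded, and reads of overlapping or antisense genes may therefore be mixed. Genes received 28.6 to 35.1% of the tallied alignments, and the 5 summary tallies entered neither library sizes nor tests.

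The 9 genes and all lists were chosen with earlier results of these data known. All 9 are described, and their symbols came with the identifiers. No other identifier was paired with a symbol, so the lists of other pathway genes and cell type markers, and the search for genes of like pattern, were not used here.

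The main test was edgeR 4.0.16 under R 4.3.3 (filterByExpr with a minimum count of 10 and total of 15, TMM, robust quasi-likelihood test) over all identifiers. P-values were adjusted by Benjamini and Hochberg's method and called below 0.05. Sublayers were compared with the animal as a block in 1 model of 12 libraries. Epilepsy was tested in 6 deep, 6 superficial and 6 summed libraries without a block. DESeq2 1.42.0, limma 3.58.1 and the other fits named are alternatives. Sublayers of 1 animal deviated together (r = 0.360 to 0.798). Epileptic and control libraries of 1 number are different animals. The correlation of their deviations from group means was 0.225, 0.116 and 0.267 for the 3 numbers in deep CA1. It was 0.234, −0.0148 and 0.176 in superficial CA1 and 0.311, 0.0685 and 0.268 in summed libraries. These values do not set deep CA1 apart. The block is named beside the deep result because it called Gpnmb there, and none of the genes in superficial or summed libraries. No libraries were duplicates (chi-square per identifier 7.30 to 125 between replicates). With 3 animals a condition, p-values of the epilepsy tests without a block measure the spread between these animals. The sublayer and interaction tests have a term for each animal. Their p-values measure how much the sublayer difference varies from animal to animal, pooled over both conditions.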

Additional observations from a re-analysis of the deposited data

Results flagged for a closer look

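The sublayer difference of Cst3 went opposite ways in the 2 conditions. Superficial libraries had more Cst3 than deep libraries in 3 of 3 epileptic animals and less in 3 of 3 control animals. The difference between the log2 fold changes, epileptic minus control, was 0.58. Cst3 was chosen for this pattern, so the difference was not tested here.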

How the results depend on the processing

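Of 587 refitted log2 fold changes, 565 kept their direction. The cause of the other 22 was not tested. All refits reuse the same 12 libraries or a part of them and are not independent. They include the sublayer values that Cst3 was chosen for, and the values of Lgals3 and Spp1. The share that kept direction over all identifiers was not computed, so the count is a description only. With the percentage of alignments outside exons in the model, epilepsy values became −0.366 for Cst3, −0.119 for Ctsb and −0.225 for Apoe in deep, −0.016 for Ctsl and −0.045 for Apoe in superficial, and −0.174 for Cst3, −0.053 for Ctsb, −0.028 for Lgals3 and −0.16 for Apoe in summed libraries. Leaving out 1 animal gave Ctsb −0.025 (without epileptic animal 3) to 0.158 in deep and −0.014 (same animal) to 0.161 in summed libraries. For sublayers in control rats, it gave Ctsd −0.033 (without control animal 2) to 0.066. In epileptic rats it gave Ctsl −0.117 to 0.097 and Clu −0.054 to 0.102, both lowest without epileptic animal 3, and Apoe −0.091 to 0.012, above 0 without epileptic animal 1 (0.011) or 2. Quality weights gave −0.039 for Ctsl and −0.018 for Clu, and no replicate block 0.022 for Apoe. The difference between conditions was −0.043 for Ctsb with quality weights, and −0.025 (without epileptic animal 1) to 0.109 for Ctsb and −0.058 (without epileptic animal 3) to 0.155 for Ctsl with 1 animal left out.

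Of the 8 genes other than Cst3, 1 was called between sublayers in control rats, where 8.44% of all identifiers were called. Quality weights called 3 (17.3% of all), and the fit without the animal as a replicate block 0 (0.0338%). In epileptic rats 3 were called (10% of all), but 5 with no low-count filter (8.99%), 0 with DESeq2 (5.48%) and 0 without the block (0.0338%). For the difference between conditions 0 were called (0% of all), but 4 with no filter (0.751%) and 1 with quality weights (0.717%). Leaving out 1 animal gave 0 to 2 in control rats, 1 to 3 in epileptic rats and 0 to 1 for the difference. The shares of all identifiers called were then 2.76 to 14%, 3.59 to 15% and 0 to 0.563%. For epilepsy, with Cst3 among the genes counted, 0 were called in deep, superficial or summed libraries (0, 0.014 and 0.0325% of all identifiers). DESeq2 called 2, 1 and 4 of them in that order, with 2.64, 6.18 and 5.97% of all identifiers called. Quality weights called 2, 1 and 1 (14.9, 12.2 and 16.1% of all). The replicate number as a block called 1, 0 and 0 (1.68, 0.175 and 0.123%). Leaving out 1 animal gave 0 to 4 in deep, 0 to 5 in superficial and 0 to 6 in summed libraries. Of all identifiers, these fits called 0 to 3.82%, 0 to 9.96% and 0 to 9.05%. The 5 in superficial libraries include Cst3, whose values within a sublayer are a description and not a test result. RLE size factors changed none of these counts of genes. Lgals3 and Spp1 did not enter the main fits of epilepsy within a sublayer. Without epileptic animal 1 they did, through epileptic libraries where they were high. The 4 in deep thus include Spp1, and the 5 in superficial libraries include both. In summed libraries, the 4 of DESeq2 and the 6 without epileptic animal 1 also include both Lgals3 and Spp1. There they reached the filter only with the help of epileptic libraries, and their calls are not counted as results. Their 0 to 8 reads in each control library limit their values.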
